A study of Homo sapiens with 32 samples.

Results

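The mitotic genes are 44 genes whose products carry a cell through mitosis, taken by gene symbol from a list of mitotic genes. They were 44 of the 19775 genes that the arrays read with a probe set of 1 symbol, and all 44 were above the intensity limit that left 14695 genes for testing. By role the list held 8 genes of mitotic entry, 5 of the Aurora kinases and the chromosomal passenger complex, 6 of the spindle checkpoint, 9 kinesins, 5 of the kinetochore and centromere, 7 of the spindle and cytokinesis and 4 of mitotic exit and chromosome structure. Each gene was read by its brightest probe set, and levels are given as log2 of the deposited intensity.

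Cells enter mitosis when cyclin B and CDK1 become active, and the genes of the programme are transcribed late in the cell cycle. In G0 and G1 the DREAM complex represses many of them, and MYB-MuvB and FOXM1 activate them in G2, largely through a promoter element called the CHR (cell cycle genes homology region) and CCAAT boxes bound by NF-Y. Kinesins are motor proteins that build the spindle, move chromosomes and complete division; the passenger complex and the spindle checkpoint hold back anaphase until chromosomes are attached; and the anaphase-promoting complex with CDC20 then destroys cyclin B.

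Expression was measured on 32 HG-U133 Plus 2.0 arrays of stable isogenic lines of H1299 and A549, both human non-small cell lung cancer lines known to lack functional SMARCA4, an ATPase of the SWI/SNF chromatin remodelling complex, and so to depend on its paralogue SMARCA2. Every line carried a hairpin and a cDNA and was otherwise untreated. The hairpin was shLuc, a control against luciferase, or S2sh7, against the part of SMARCA2 that encodes the ATPase domain. The cDNA encoded GFP or 1 of 3 remodeller forms: unmutated (WT), with a mutant bromodomain (BRD) or with a dead ATPase (ATPdead). These forms were of SMARCA2 in the H1299 lines, and in the A549 lines they were of SMARCA4. In H1299 each of the 8 combinations had 3 arrays. In A549 each had 1 array, so the WT and BRD lines, whose SMARCA4 keeps its ATPase, were taken as 1 class ("competent SMARCA4") and the GFP and ATPdead lines as another, giving 4 classes of 2 arrays in which different cDNAs stand in for replicates. The labels call the H1299 arrays biological replicates but do not say whether separate cultures were grown, so p-values measure the spread between these arrays. H1299 was batch 1 and A549 batch 2, so line and batch cannot be told apart, and each line was fitted alone.

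The hairpin lowered the brightest SMARCA2 probe set in every background. On a SMARCA2 probe set the 4 A549 shLuc arrays read 8.19 to 8.32 and the 4 S2sh7 arrays 5.02 to 5.17, and the fitted change of the brightest probe set was -2.98 without and -3.05 with competent SMARCA4. In H1299 the brightest probe set changed by -1.30, -1.44 and -1.14 with GFP, BRD and ATPdead and by -1.005 with WT. The SMARCA2 cDNAs were visible on another probe set, whose H1299 means under S2sh7 were 4.64 ± 0.45 (SD, n = 3) with GFP and 6.25 ± 0.24, 6.06 ± 0.11 and 5.82 ± 0.15 with WT, BRD and ATPdead. Its shLuc means were 5.41, 6.91, 6.75 and 6.77 in that order. The S2sh7 lines with a SMARCA2 cDNA thus read above the shLuc GFP line there. A further SMARCA2 probe set, near log2 5, did not fall with any SMARCA2 cDNA in H1299. It read 4.88, 4.98, 4.88 and 4.88 under shLuc and 4.76, 5.04, 5.03 and 4.94 under S2sh7. In A549, without a SMARCA2 cDNA, it read 5.36, 5.41, 5.35 and 5.34 under shLuc with GFP, WT, BRD and ATPdead. Under S2sh7 the A549 arrays read 5.27, 5.44, 5.31 and 5.43. This probe set thus hardly moved with the hairpin in A549 either, and is no measure of the SMARCA2 cDNAs. The SMARCA4 cDNAs of A549 were visible on a SMARCA4 probe set that read, under shLuc, 4.56 with GFP and 6.64, 6.91 and 6.85 with WT, BRD and ATPdead, and under S2sh7 4.97 with GFP and 7.88, 7.91 and 7.24. The competent cDNAs thus read higher under S2sh7 than under shLuc, and ATPdead less so; the part of this in the results below was not tested.

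In A549 the hairpin moved the mitotic genes in opposite directions depending on the cDNA. With GFP 36 of the 44 were lower on the S2sh7 array than on the shLuc array, with a median log2 difference of -0.21, and with ATPdead 40 were lower, with a median of -0.42. With WT and with BRD all 44 were higher, with medians of 0.43 and 0.47; over all genes tested the medians of the 4 pairs lay between 0.0025 and 0.024. These are 4 pairs of arrays with 4 different control arrays.

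**Figure D1:**
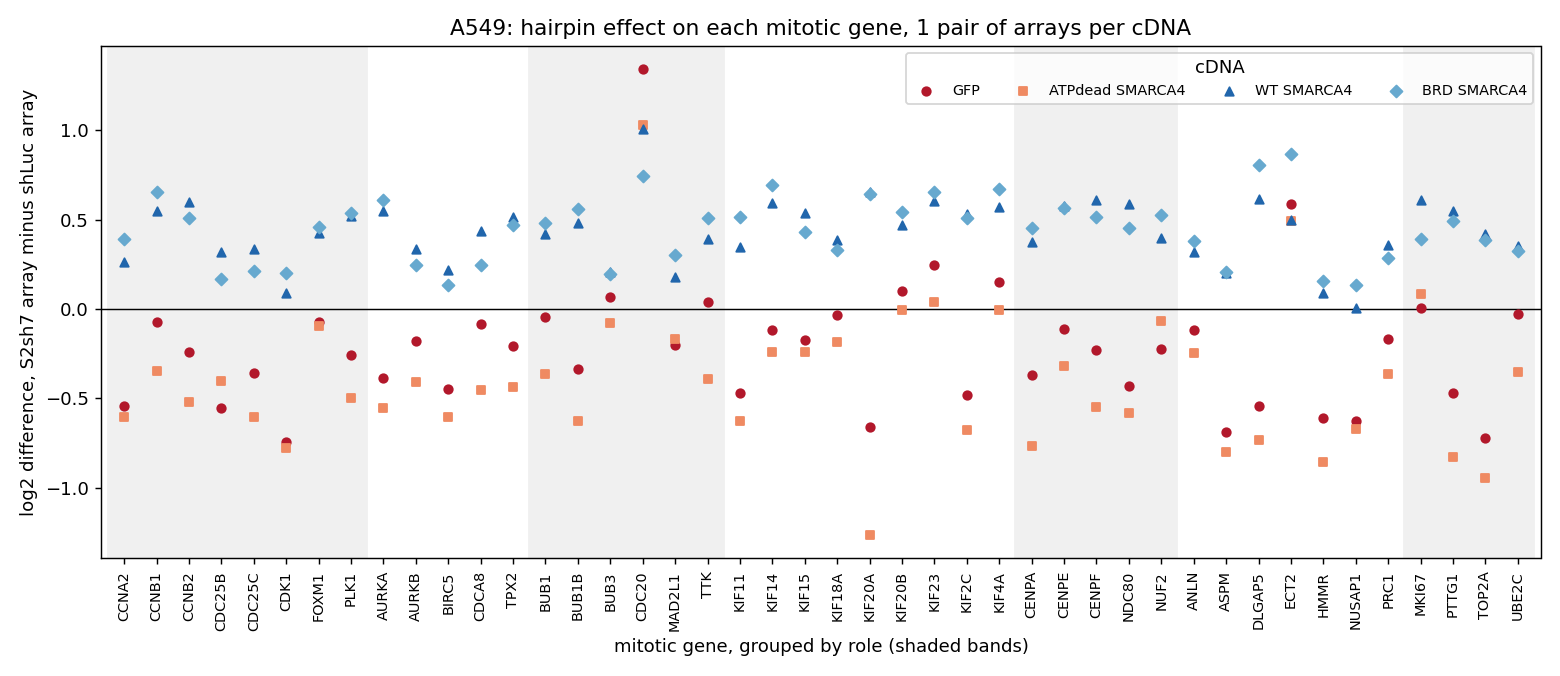
Log2 difference between the S2sh7 and the shLuc array of A549 for each of the 44 mitotic genes (horizontal axis, grouped by role in shaded bands), with a symbol for each of the 4 cDNAs and no error bar, since each pair is 1 array against 1. The blue symbols (WT and BRD) all lie above 0, while 36 (GFP) and 40 (ATPdead) of the red and orange symbols lie below it; CDC20 and ECT2 are high in all 4 pairs.

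Fitted over the classes, 29 mitotic genes fell and 2 rose with the hairpin without competent SMARCA4, at a limma adjusted p under 0.05. Of all genes tested 49.8% changed in that comparison (22.9% fell and 27% rose), and the member median was -0.31 against 0.004 over all genes. With competent SMARCA4, 37 rose and 0 fell, where 21.3% of all genes changed (12.1% rose and 9.28% fell), and the medians were 0.45 and 0.01. The difference between those hairpin effects passed the test for 40 members, all toward higher with competent SMARCA4, where 23.9% of all genes passed (12% higher and 11.9% lower); the median difference was 0.74 for members and -0.0047 for all genes. The comparisons with and without competent SMARCA4 use separate arrays but share 1 spread per gene from the same fit. A fit with a single hairpin term over all 8 arrays, which averages the opposing effects, called 2 members, both higher. Leaving out the shLuc BRD or the shLuc WT array lowered the 37 calls to 22 and 23; with the GFP and ATPdead arrays fitted alone 24 fell and 2 rose, and with the WT and BRD arrays alone 35 rose.

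Combining both comparisons, 23 members fell without and rose with competent SMARCA4, a pattern shown by 99 of the 14695 genes tested (0.674%). Another 6 (ASPM, AURKB, BIRC5, CDK1, HMMR and NUSAP1) fell without and were not called with it, as were 14.8% of all genes. A further 12 (BUB1, CCNB1, CDCA8, FOXM1, KIF18A, KIF20B, KIF23, KIF4A, MKI67, NUF2, TTK and UBE2C) were not called without and rose with it, as did 2.25% of all genes. CDC20 and ECT2 rose in both, as did 9.15% of all genes, and BUB3 was called in neither. By array, both S2sh7 arrays without competent SMARCA4 lay below the other 6 for 35 members, where 23.6% of all genes did. Both S2sh7 arrays with it lay above the other 6 for 43 members, all but CDC20, where 7.38% of all genes did. Both orders together held for 35 members and for 2.65% of all genes.

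KIF20A, a kinesin of the central spindle needed for cytokinesis, had the largest fall and the largest difference between the hairpin effects. Its levels on the shLuc arrays were 8.37 with GFP, 8.54 with ATPdead, 8.59 with WT and 8.52 with BRD. On the S2sh7 arrays they were 7.71 with GFP, 7.27 with ATPdead, 9.25 with WT and 9.17 with BRD. The 4 shLuc arrays lay between 8.37 and 8.59, and the S2sh7 arrays fell below all of them without competent SMARCA4 and above all of them with it. The hairpin effect was -0.96 ± 0.13 (SE, 2 arrays against 2, limma adjusted p = 0.00055) without competent SMARCA4, which is 0.513 of the control level. With it the effect was 0.65 ± 0.13 (adjusted p = 0.013), 1.57 of the control level, and the difference of 1.61 ± 0.19 had an adjusted p of 0.00087. The call of the rise was lost when the S2sh7 WT, shLuc BRD or shLuc WT array was left out (0.61, 0.62 and 0.68, adjusted p = 0.074, 0.076 and 0.058).

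Among the 8 entry genes, 6 fell without competent SMARCA4 and 7 rose with it; the median differences were -0.43 and 0.39. CDK1, the kinase that cyclin B activates, read 10.96, 11.01, 11.11 and 11.12 on the shLuc arrays with GFP, ATPdead, WT and BRD. The S2sh7 arrays read 10.22, 10.23, 11.20 and 11.31 in the same order, so those without competent SMARCA4 stood alone below the rest. CDK1 fell by 0.76 (SE 0.061, adjusted p = 2.89e-05) and its difference with competent SMARCA4 was 0.14 (adjusted p = 0.13). The cyclins CCNA2 and CCNB2, the phosphatases CDC25B and CDC25C that activate CDK1 and the kinase PLK1 fell without (-0.57, -0.38, -0.48, -0.48 and -0.38) and rose with it (0.33, 0.56, 0.24, 0.27 and 0.53). CCNB1, the cyclin of mitotic entry, and FOXM1, the transcription factor, had differences of -0.21 and -0.08 that did not pass and rises of 0.60 and 0.44 that did.

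The 5 genes of the Aurora kinases and passenger complex split the same way: 4 fell without competent SMARCA4 and 3 rose with it. AURKA, the centrosomal kinase, and TPX2, its activator on the spindle, fell by 0.47 and by 0.32 and rose by 0.58 and 0.49. AURKB and BIRC5 (survivin), of the passenger complex, fell by 0.29 and by 0.53, and their differences with competent SMARCA4 (0.29 and 0.18) did not pass. CDCA8 (borealin), of the same complex, had a difference of -0.27 that did not pass and a rise of 0.34.

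Of the 6 checkpoint genes, 2 fell and 1 rose without competent SMARCA4, and 5 rose with it. The kinase-like BUB1B fell by 0.48 and rose by 0.52, and MAD2L1, which inhibits CDC20, fell by 0.19 and rose by 0.24. BUB1 and TTK, checkpoint kinases, rose by 0.45 each with competent SMARCA4, with differences of -0.21 and -0.18 without it that did not pass. CDC20, the activator of the anaphase-promoting complex, ran against its group. It read 9.32, 9.20, 9.22 and 9.28 on the shLuc arrays with GFP, ATPdead, WT and BRD, and 10.66, 10.23, 10.23 and 10.03 on the S2sh7 arrays. Every S2sh7 array was above every shLuc array, the GFP array most. CDC20 rose by 1.18 (SE 0.13, adjusted p = 0.00019) without and 0.87 (adjusted p = 0.0041) with competent SMARCA4, and the difference of -0.31 did not pass (SE 0.19, adjusted p = 0.29).

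All 9 kinesins rose with competent SMARCA4, by 0.36 to 0.65, and 5 fell without it. KIF2C, which takes apart microtubule ends at centromeres, read 8.72, 8.77, 8.74 and 8.77 on the shLuc arrays with GFP, ATPdead, WT and BRD and 8.24, 8.09, 9.28 and 9.28 on the S2sh7 arrays. Its shLuc levels lay between 8.72 and 8.77, with the S2sh7 arrays on either side, and it fell by 0.58 and rose by 0.52 (adjusted p = 0.00019 and 0.0018). KIF11, which slides spindle microtubules apart, fell by 0.55 and rose by 0.43; KIF14, of cytokinesis, and KIF15, of the spindle, fell by less (-0.18 and -0.21) and rose by 0.64 and 0.48. The chromokinesin KIF4A read 8.19, 8.22, 8.35 and 8.27 on the shLuc arrays and 8.34, 8.21, 8.92 and 8.95 on the S2sh7 arrays. Its S2sh7 arrays without competent SMARCA4 stayed among the shLuc arrays, a difference of 0.07 (adjusted p = 0.41), and the others stood apart by 0.62 (adjusted p = 9e-04). KIF20B, KIF23 and KIF18A likewise had differences of 0.05, 0.14 and -0.11 that did not pass and rises of 0.51, 0.63 and 0.36. For KIF20B the mean over its probe sets rose by 0.15 and did not pass (adjusted p = 0.10).

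All 5 kinetochore and centromere genes rose with competent SMARCA4 and 4 fell without it. CENPA, the centromeric histone, CENPF and CENPE, a kinetochore motor, fell by 0.57, by 0.39 and by 0.22 and rose by 0.41, 0.56 and 0.57. NDC80, which binds spindle microtubules, fell by 0.51 and rose by 0.52, whereas its partner NUF2 had a difference of -0.15 that did not pass and a rise of 0.46.

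Of the 7 spindle and cytokinesis genes, 6 fell and 1 rose without competent SMARCA4 and 4 rose with it. DLGAP5, a spindle protein regulated by Aurora A, read 9.23, 9.26, 9.33 and 9.24 on the shLuc arrays with GFP, ATPdead, WT and BRD and 8.68, 8.53, 9.94 and 10.05 on the S2sh7 arrays. It fell by 0.64 and rose by 0.71, a difference of 1.35 (SE 0.10, adjusted p = 0.00018). ASPM, a spindle pole protein, read 9.91, 9.93, 10.02 and 10.09 under shLuc and 9.23, 9.13, 10.22 and 10.30 under S2sh7. HMMR, a microtubule-binding protein, read 10.23, 10.28, 10.41 and 10.35 and then 9.62, 9.42, 10.50 and 10.50. NUSAP1, which bundles microtubules, read 10.26, 10.35, 10.39 and 10.34 and then 9.64, 9.68, 10.39 and 10.47. In these 3 genes the S2sh7 arrays with competent SMARCA4 lay close to the shLuc arrays. The falls were 0.74, 0.73 and 0.65 in size, and the differences of 0.20, 0.12 and 0.07 did not pass. PRC1, which crosslinks central spindle microtubules, fell by 0.26 and rose by 0.32, and ANLN (anillin) fell by 0.18 and rose by 0.35. ECT2, the exchange factor that activates RhoA at the cleavage furrow, read 10.14, 10.40, 10.52 and 10.36 under shLuc and 10.72, 10.90, 11.01 and 11.23 under S2sh7. Its S2sh7 arrays were all above its shLuc arrays, and it rose by 0.54 without and 0.68 with competent SMARCA4 (adjusted p = 0.0056 and 0.0062).

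Of the 4 genes of exit and chromosome structure, 2 fell without and all 4 rose with competent SMARCA4. TOP2A, the topoisomerase that untangles chromosomes, read 11.46, 11.48, 11.57 and 11.53 on the shLuc arrays with GFP, ATPdead, WT and BRD and 10.74, 10.53, 11.98 and 11.91 on the S2sh7 arrays. The hairpin effects were -0.83 and 0.40 (adjusted p = 6.17e-05 and 0.0092), each outside the range of the shLuc arrays. PTTG1 (securin), which holds back separase, fell by 0.65 and rose by 0.52. UBE2C, the ubiquitin-conjugating enzyme of the anaphase-promoting complex, had a difference of -0.19 that did not pass and rose by 0.34. MKI67, the Ki-67 antigen, had a difference of 0.04 and rose by 0.50; its difference between the hairpin effects (0.45, adjusted p = 0.051) did not pass.

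**Figure D2:**
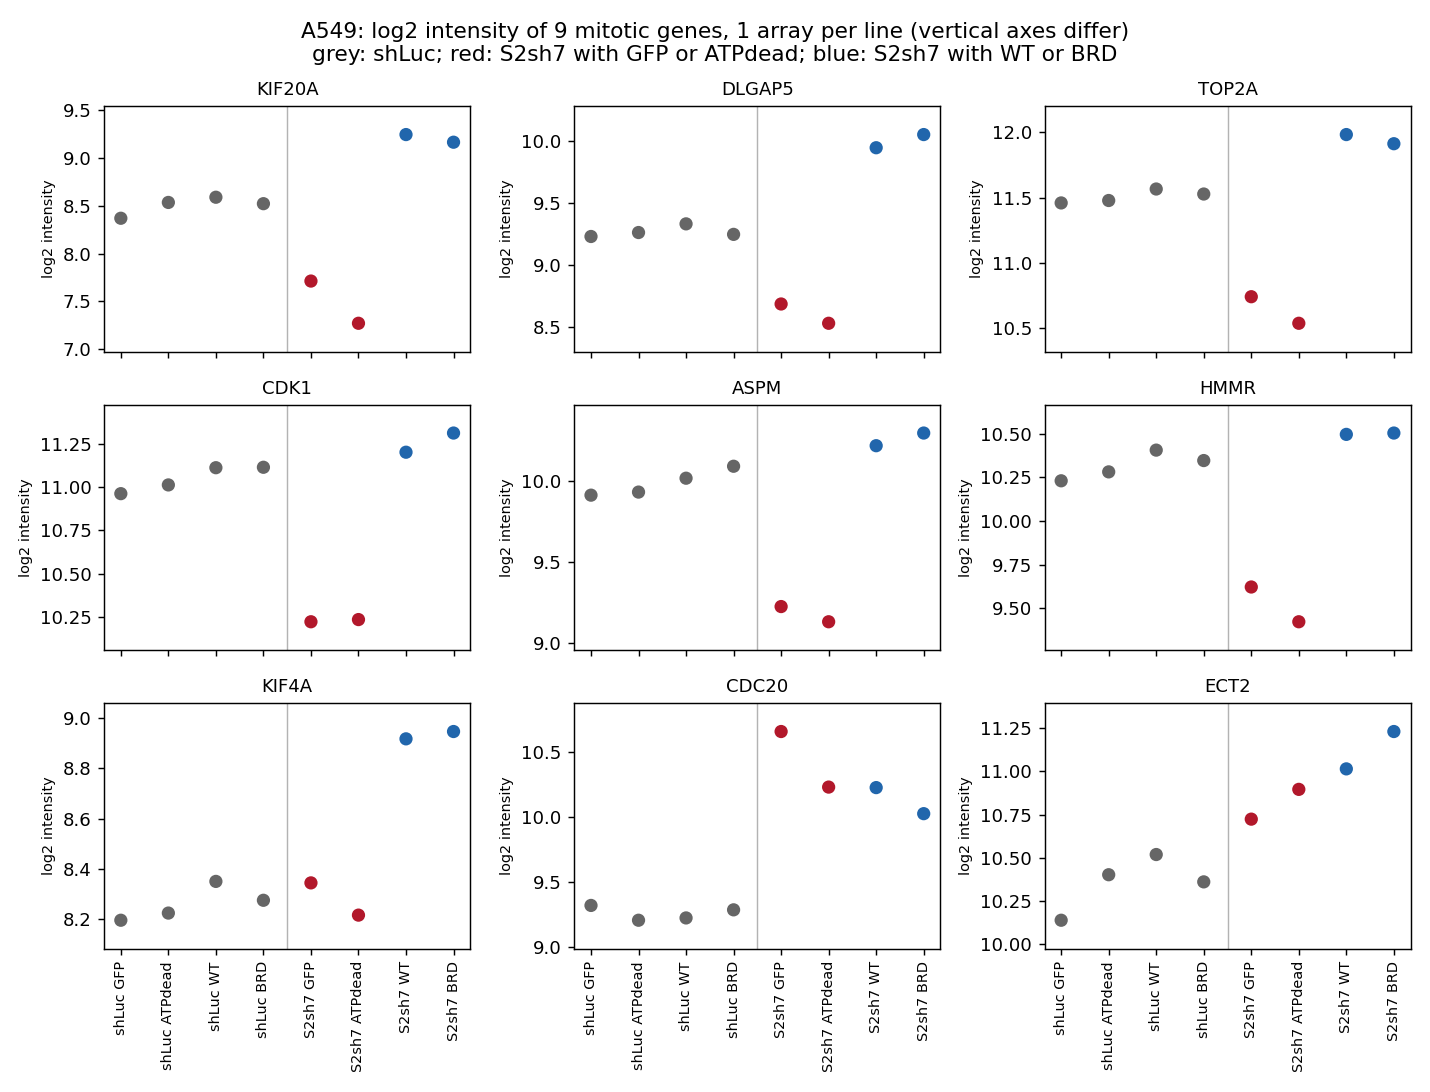
Log2 intensity (vertical axis, a separate range for each panel) of 9 mitotic genes on the 8 A549 arrays (horizontal axis, hairpin and cDNA), 1 point per array. KIF20A, DLGAP5 and TOP2A leave the shLuc range in both directions, KIF4A leaves it upward with WT and BRD, and CDC20 and ECT2 are higher on all 4 S2sh7 arrays.

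Competent SMARCA4 by itself, compared with none under shLuc, called 0 of the 44 members and 0% of all genes by limma; at an unadjusted p under 0.05 there were 1 member and 746 genes, and limma with an intensity trend and robust variances also called 0 members. The member median was 0.08 (range -0.02 to 0.19) against -0.01 over all genes, with standard errors of at most 0.13. Under S2sh7 the same comparison called 42 members, all higher, where 38.7% of all genes changed (17.8% higher and 20.9% lower); the exceptions were CDC20 (-0.32, adjusted p = 0.10) and ECT2 (0.31, adjusted p = 0.068). KIF20A was 3.29-fold, DLGAP5 2.62-fold, TOP2A 2.48-fold and CDK1 2.05-fold higher there. BUB3, a checkpoint protein, was higher by 0.29. This comparison uses the S2sh7 arrays already described.

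Other lists of the cell cycle were set beside the mitotic genes in A549. Of 33 further G2/M genes, 16 fell and 2 rose without competent SMARCA4 and 23 rose with it, the latter including PSRC1 and RACGAP1, which act on the spindle and in cytokinesis (0.59 and 0.66); PBK, a mitotic kinase, fell by 0.89. Of 8 condensin subunits, which compact chromosomes, 4 fell without and 7 rose with it, and NCAPD2 fell by 0.63 and rose by 0.39. Of 30 further kinetochore and centromere genes, 13 fell and 2 rose without and 11 rose with it; HJURP, the chaperone that deposits CENPA, fell by 1.06. The 15 tested subunits and cofactors of the anaphase-promoting complex were mixed, with 6 higher and 5 lower without and 4 higher and 1 lower with it.

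Of the 35 S phase genes tested, 27 fell and 2 rose without competent SMARCA4 (median -0.32), among them the polymerase subunit POLA1 (-0.67) and the clamp loader subunit RFC3 (-0.79). With it 3 rose and 2 fell (median 0.06); TYMS, which makes thymidylate (0.40), and CCNE2, cyclin E2 of the G1/S transition (-0.48), were among these. By pair the S phase medians were -0.32 with GFP, -0.32 with ATPdead, 0.06 with WT and 0.05 with BRD, beside -0.21, -0.42, 0.43 and 0.47 for the mitotic genes. The difference between the 2 lists was not tested. Among 21 regulators of the DREAM, MYB-MuvB, E2F and NF-Y families, 8 rose and 5 fell without competent SMARCA4 and 5 rose and 2 fell with it. Over all genes, the background for each of these lists, 27% rose and 22.9% fell without it, and 12.1% rose and 9.28% fell with it. MYBL2 (B-MYB), the activator within MYB-MuvB, fell by 0.34 without and differed by 0.50 between the hairpin effects. E2F7, a repressor, fell in both (-0.96 and -0.54), and NFYB, a CCAAT-binding subunit, rose by 0.77 without.

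**Figure D3:**
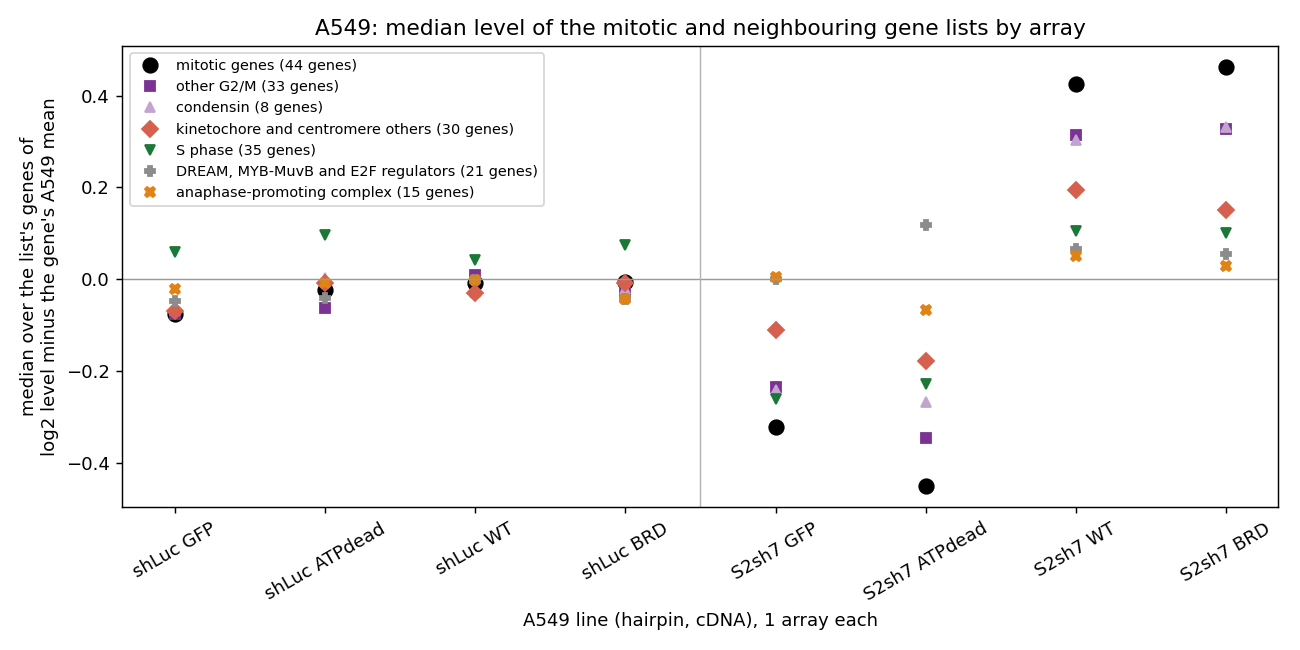
Median over the genes of each list of the log2 level minus that gene's mean over the 8 A549 arrays (vertical axis), by array (horizontal axis), 1 symbol per list and array and no error bar. The mitotic genes stand at -0.32 and -0.45 on the S2sh7 GFP and ATPdead arrays and at 0.43 and 0.46 on the S2sh7 WT and BRD arrays, while the S phase list stands at -0.26 and -0.23 and then at 0.11 and 0.10.

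In bulk RNA, fewer cells in G2 and mitosis and less RNA per cell cannot be told apart. The 3'-to-5' log2 difference of the ACTB control probes was 0.17 to 0.18 on the S2sh7 arrays without and 0.18 to 0.23 with competent SMARCA4, and 0.17 to 0.24 on the shLuc arrays. That of the GAPDH control probes was 0.15 to 0.19 on the S2sh7 arrays without, highest with ATPdead, and 0.12 to 0.13 with competent SMARCA4, so these classes did not overlap, and it was 0.12 to 0.16 on the shLuc arrays. The part of either measure in the results was not tested. All 6 epithelial keratin and adhesion markers were above log2 5 in A549, apart from KRT19 on 1 array, and 3 of 6 (KRT7, KRT8 and KRT18) in H1299, where EPCAM, CDH1 and KRT19 were below it. Their summed intensity in A549 was 19500 to 19700 on the S2sh7 arrays without and 19570 to 20150 with competent SMARCA4, and 28060 to 31960 on the shLuc arrays. Single markers moved with the hairpin effect: CDH1, EPCAM and KRT19 fell without competent SMARCA4 (-1.77, -1.36 and -2.28; limma adjusted p = 0.00028, 0.00098 and 0.00073). With it they differed by -0.32, 0.47 and -0.19 and none was called, and the 2 hairpin effects differed by 1.45, 1.83 and 2.09 (adjusted p = 0.012, 0.0039 and 0.015). KRT8 fell in both (-1.54 and -0.96), with a difference of 0.58 that passed, and KRT18 fell in both (-0.51 and -0.61). Of 7 measured leukocyte and endothelial markers, 4 (CD14, CD3E, PECAM1 and VWF) were above log2 5 in A549, and PTPRC, the defining leukocyte gene, CDH5 and LYZ were below it on every array. Their summed intensity was 241 to 256 on the S2sh7 arrays without and 285 to 306 with competent SMARCA4, and 319 to 331 and 358 to 364 on the shLuc arrays; the part of either list in the results was not tested. Of 4 measured alveolar and club cell markers, 3 were above log2 5 in both lines and SCGB1A1 was not. Log2 5 lies below the array medians of A549 (intensity 40.1 to 41.2) and above those of H1299 (26.4 to 27.3). A marker above this limit is thus not shown to be expressed. NKX2-1, for example, read only 5.37 to 5.56 in A549.

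The promoters of the mitotic genes were read for the letters of the elements described above. RefSeq windows (GRCh38.p14) of 250 bases before to 50 after the transcript start were found for 37 of the 44; FOXM1, AURKA, BIRC5, TPX2, BUB3, TTK and UBE2C had no entry. The CHR was searched as TTTGAA or TTCGAA and the CCAAT box as CCAAT, on both strands. The 200 bases before the start are shown for the genes with the largest opposing changes (KIF20A, DLGAP5 and TOP2A), for CDK1 and HMMR, which fell and were not called higher, for KIF4A, which rose and was not called lower, and for CDC20 and ECT2, which rose in both comparisons. Each is written 5' to 3' on the gene's strand, with matches to either motif in capitals; TTCAAA and ATTGG are the reverse complements.
KIF20A (chr5:138178912-138179111, plus strand): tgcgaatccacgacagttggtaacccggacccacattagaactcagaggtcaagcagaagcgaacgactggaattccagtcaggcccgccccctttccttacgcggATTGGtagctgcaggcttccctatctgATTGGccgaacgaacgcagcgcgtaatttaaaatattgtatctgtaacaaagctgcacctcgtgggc
DLGAP5 (chr14:55191586-55191785, minus strand): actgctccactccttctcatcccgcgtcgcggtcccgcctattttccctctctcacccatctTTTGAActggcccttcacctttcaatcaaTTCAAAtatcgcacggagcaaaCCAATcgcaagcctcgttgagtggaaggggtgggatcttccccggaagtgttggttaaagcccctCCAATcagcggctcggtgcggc
TOP2A (chr17:40417897-40418096, minus strand): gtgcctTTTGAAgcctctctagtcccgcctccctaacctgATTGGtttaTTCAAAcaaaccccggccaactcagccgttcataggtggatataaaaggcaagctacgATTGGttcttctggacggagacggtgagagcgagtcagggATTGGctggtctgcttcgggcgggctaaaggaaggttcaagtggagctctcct
CDK1 (chr10:60778131-60778330, plus strand): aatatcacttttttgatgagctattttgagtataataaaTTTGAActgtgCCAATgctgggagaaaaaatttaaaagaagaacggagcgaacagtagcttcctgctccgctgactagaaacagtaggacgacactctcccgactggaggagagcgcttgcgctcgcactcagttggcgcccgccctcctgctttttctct
HMMR (chr5:163460432-163460631, plus strand): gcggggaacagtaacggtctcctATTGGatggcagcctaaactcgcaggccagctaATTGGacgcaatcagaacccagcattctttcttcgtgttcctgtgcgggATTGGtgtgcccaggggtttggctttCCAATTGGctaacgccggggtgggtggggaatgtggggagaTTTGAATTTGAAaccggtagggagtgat
KIF4A (chrX:70289904-70290103, plus strand): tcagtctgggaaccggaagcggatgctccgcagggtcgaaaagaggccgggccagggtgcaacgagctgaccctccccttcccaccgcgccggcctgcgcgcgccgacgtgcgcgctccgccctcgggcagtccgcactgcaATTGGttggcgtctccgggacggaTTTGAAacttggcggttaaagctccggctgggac
CDC20 (chr1:43358781-43358980, plus strand): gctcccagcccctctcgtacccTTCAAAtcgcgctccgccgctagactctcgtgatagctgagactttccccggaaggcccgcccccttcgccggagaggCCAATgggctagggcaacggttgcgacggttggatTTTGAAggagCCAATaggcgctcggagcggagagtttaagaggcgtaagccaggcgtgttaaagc
ECT2 (chr3:172750526-172750725, plus strand): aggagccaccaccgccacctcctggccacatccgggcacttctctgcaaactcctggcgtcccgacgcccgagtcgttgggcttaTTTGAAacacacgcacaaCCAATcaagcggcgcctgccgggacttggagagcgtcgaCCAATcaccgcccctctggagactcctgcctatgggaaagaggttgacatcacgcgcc

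KIF20A held 2 CCAAT matches, 94 and 67 bases before its start, and neither TTTGAA nor TTCGAA in the window. HMMR held tandem CHR letters 28 and 22 bases before its start. Over the 37 windows, 28 held a CHR (75.7%), against 2 of 31 S phase genes (6.45%) and 16.4% of all 35116 promoters of that length. CCAAT was present in 28 of 37 (75.7%), in 54.8% of the S phase windows and in 34.6% of all. Both were present in 23 mitotic windows (62.2%), in 6.45% of S phase windows and in 6.38% of all; in 2 of the 37 a CHR match overlapped CCAAT letters. In 14 the CHR began within 40 bases before the start. The median difference between the A549 hairpin effects was 0.71 for the 28 members with TTTGAA or TTCGAA in the window. It was 0.81 for the 9 without these letters (CCNA2, CCNB1, CDC25B, CDC25C, AURKB, KIF20A, KIF2C, CENPE and PTTG1). CDC20 and ECT2, the genes that rose in both comparisons, held both motifs. These are matches of letters in 1 annotated window per gene, not measured sites. No other letters were searched as a CHR, so a window without a match is not shown to lack the element.

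**Figure D4:**
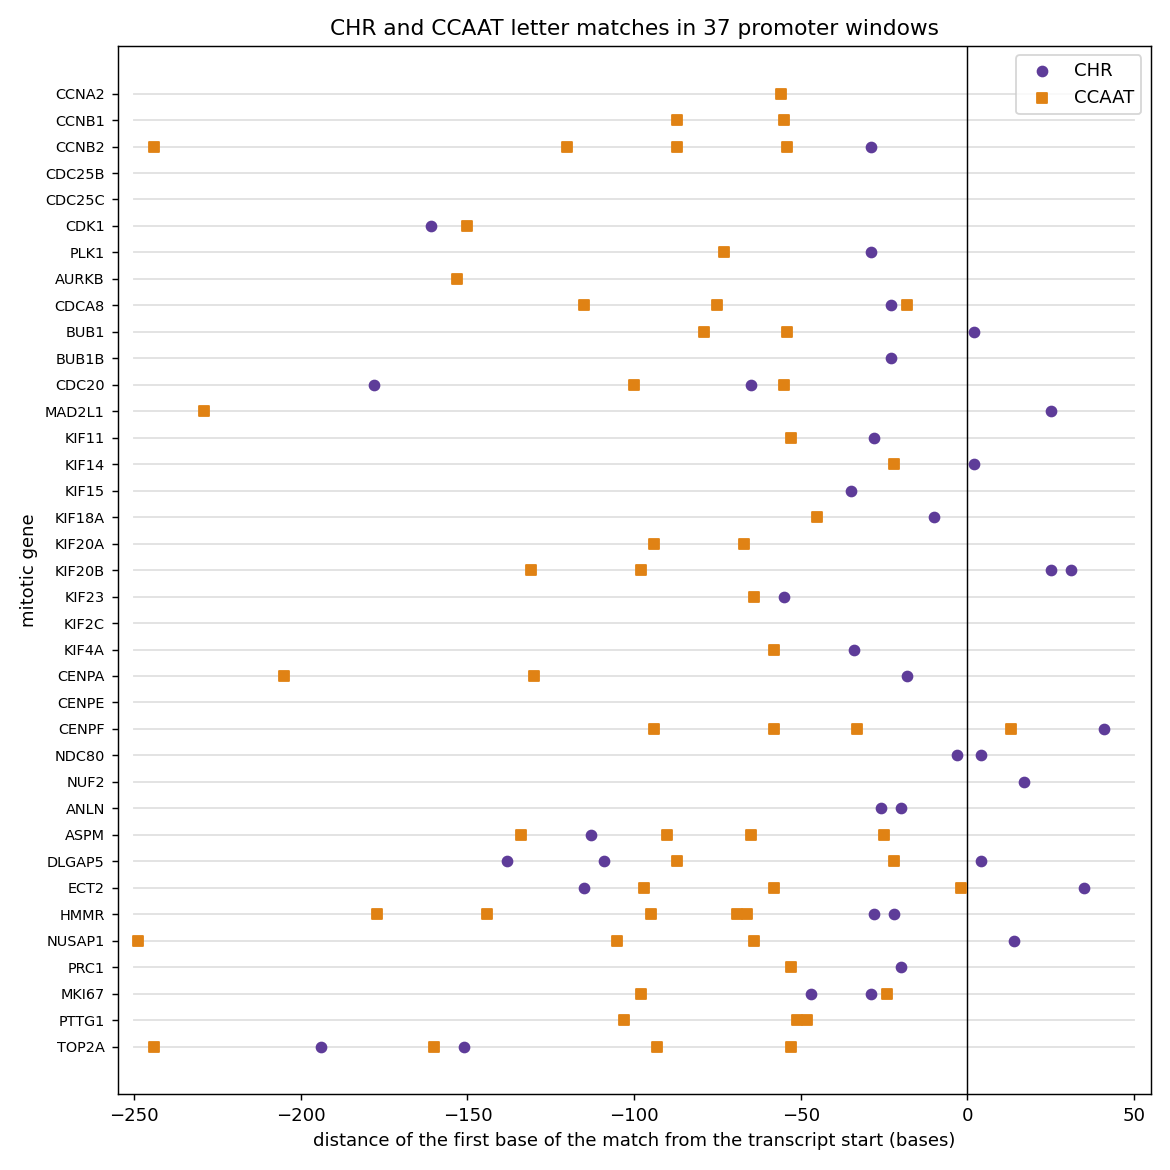
Position of CHR (circles) and CCAAT (squares) letter matches in the promoter windows of 37 mitotic genes (vertical axis), as distance in bases of the first matched base from the transcript start (horizontal axis). CHR matches are present in 28 windows and CCAAT matches in 28, and KIF20A, like CCNA2, CCNB1, AURKB and PTTG1, shows CCAAT matches alone.

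In H1299 the mitotic genes that changed with the hairpin mostly rose, by much less than in A549. With GFP 14 of the 44 rose and 1 fell, where 29.7% of all genes changed, 13.6% upward and 16.1% downward. With WT 16 rose and 0 fell, where 26.5% of all genes changed (14.9% up and 11.6% down). With BRD 18 rose and 1 fell, where 23.7% changed (11.1% up and 12.7% down), and with ATPdead 14 rose and 1 fell, where 28.4% changed (16.5% up and 11.9% down). All S2sh7 arrays were above all shLuc arrays for 19, 24, 24 and 26 members with GFP, WT, BRD and ATPdead, where 20.7%, 22.8%, 19.1% and 23.7% of all genes were. They were below for 3, 1, 2 and 2 members, where 21.4%, 17.2%, 17.8% and 17.3% of all genes were. Over all genes 1999 were called higher and 2360 lower with GFP. With each array centred on its median those became 3316 and 1684 with GFP, and 23 members rose and 0 fell; with BRD the split moved from 1626 and 1860 to 2531 and 1436. The 62 higher calls ranged from 0.07 to 0.30 (1.05-fold to 1.24-fold). These counts rest on the brightest probe set of each gene. With each probe set fitted on its own, 79 member probe sets were tested. Of these, 21, 26, 28 and 24 were called higher and 3, 4, 7 and 5 lower with GFP, WT, BRD and ATPdead. The share of all probe sets called is not given here, so these probe set counts have no background. The member medians were 0.04, 0.07, 0.07 and 0.06, against 0.01 to 0.02 over all genes. Without replicate 2 of the shLuc GFP, WT or BRD group, the counts in that group's comparison became 9, 10 and 10, and with only the groups compared in the fit they were 8, 7 and 6. Under S2sh7 the brightest SMARCA4 probe set was also lower (-0.60, -0.33, -0.30 and -0.37); its part in these results was not tested.

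Of the 9 kinesins in H1299, 7 rose with GFP, 7 with WT, 8 with BRD and 7 with ATPdead. KIF20A read 9.30, 9.33 and 9.37 with shLuc and GFP and 9.49, 9.55 and 9.50 with S2sh7 and GFP. With WT it read 9.31, 9.33 and 9.34 and then 9.55, 9.59 and 9.59, with BRD 9.32, 9.28 and 9.41 and then 9.56, 9.55 and 9.54, and with ATPdead 9.28, 9.33 and 9.30 and then 9.57, 9.52 and 9.54. The groups did not overlap in any background, and KIF20A rose by 0.18, 0.25, 0.22 and 0.24 (SE 0.031, limma adjusted p = 0.00015, 5.12e-06, 3.37e-05 and 8.71e-06). KIF15 read 7.01, 6.93 and 7.00 with shLuc and GFP and 7.12, 7.26 and 7.36 with S2sh7 and GFP. It rose by 0.26 to 0.30 in the 4 backgrounds, the highest values of any member in these comparisons. KIF4A read 9.40, 9.48 and 9.45 and then 9.57, 9.65 and 9.59 with GFP, a rise of 0.16 (adjusted p = 0.00066). KIF11 read 9.41, 9.42 and 9.41 and then 9.55, 9.64 and 9.57, and KIF23, a motor of the central spindle, 9.04, 9.01 and 9.10 and then 9.17, 9.28 and 9.20. Neither pair of groups overlapped, and the rises were 0.17 and 0.17; KIF23 had a mean over its probe sets of 0.09 that did not pass (adjusted p = 0.35). KIF18A was called in no background.

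The 7 members that rose in all 4 backgrounds were the kinesins KIF15, KIF20A, KIF23, KIF2C and KIF4A, with BUB1B and NDC80; 6.06% of all genes did. The 4 comparisons share no arrays, but they share 1 spread per gene estimated over all 24 H1299 arrays, so their calls are not independent. BUB1B rose by 0.11, 0.10, 0.19 and 0.15 and NDC80 by 0.10, 0.17, 0.09 and 0.18 with GFP, WT, BRD and ATPdead. A further 6 members rose in 3 backgrounds, 4 in 2 and 8 in 1, and 19 in 0. Over all genes these shares were 3.98%, 4.93%, 10% and 75%, in the same order. CDK1 read 11.37 on all 3 arrays with shLuc and GFP and 11.47, 11.51 and 11.44 with S2sh7 and GFP, and rose by 0.10 (adjusted p = 0.0056) in that background alone by the test; its mean over probe sets (0.06) did not pass, nor did the fit of only those groups (adjusted p = 0.072). AURKB fell with GFP (9.55, 9.44 and 9.35, then 9.24, 9.31 and 9.30; -0.17, adjusted p = 0.01) and with BRD (-0.16). Without shLuc GFP replicate 1 its fall with GFP was 0.12 in size and did not pass (adjusted p = 0.08), nor did it pass with centred arrays or with only those groups fitted (adjusted p = 0.078 and 0.075).

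For ASPM and TOP2A another probe set was called opposite to the brightest in H1299. The brightest ASPM probe set read 9.30, 9.20 and 9.37 with shLuc and GFP and 9.49, 9.47 and 9.44 with S2sh7 and GFP, a rise of 0.18 (adjusted p = 0.0084) that was 0.13 and not called without shLuc GFP replicate 2 (adjusted p = 0.058). The mean over the ASPM probe sets differed by -0.0105, and other ASPM probe sets were called lower with BRD and ATPdead, so the direction of ASPM in H1299 depends on the probe set. The brightest TOP2A probe set fell by 0.15 with ATPdead while another was called higher. In A549 no probe set was called opposite to a called brightest probe set of its gene. Of the 79 member probe sets, 48 were called lower and 3 higher without competent SMARCA4. With it 53 were called higher and 1 lower. For these counts too the share of all probe sets called is not given.

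**Figure D5:**
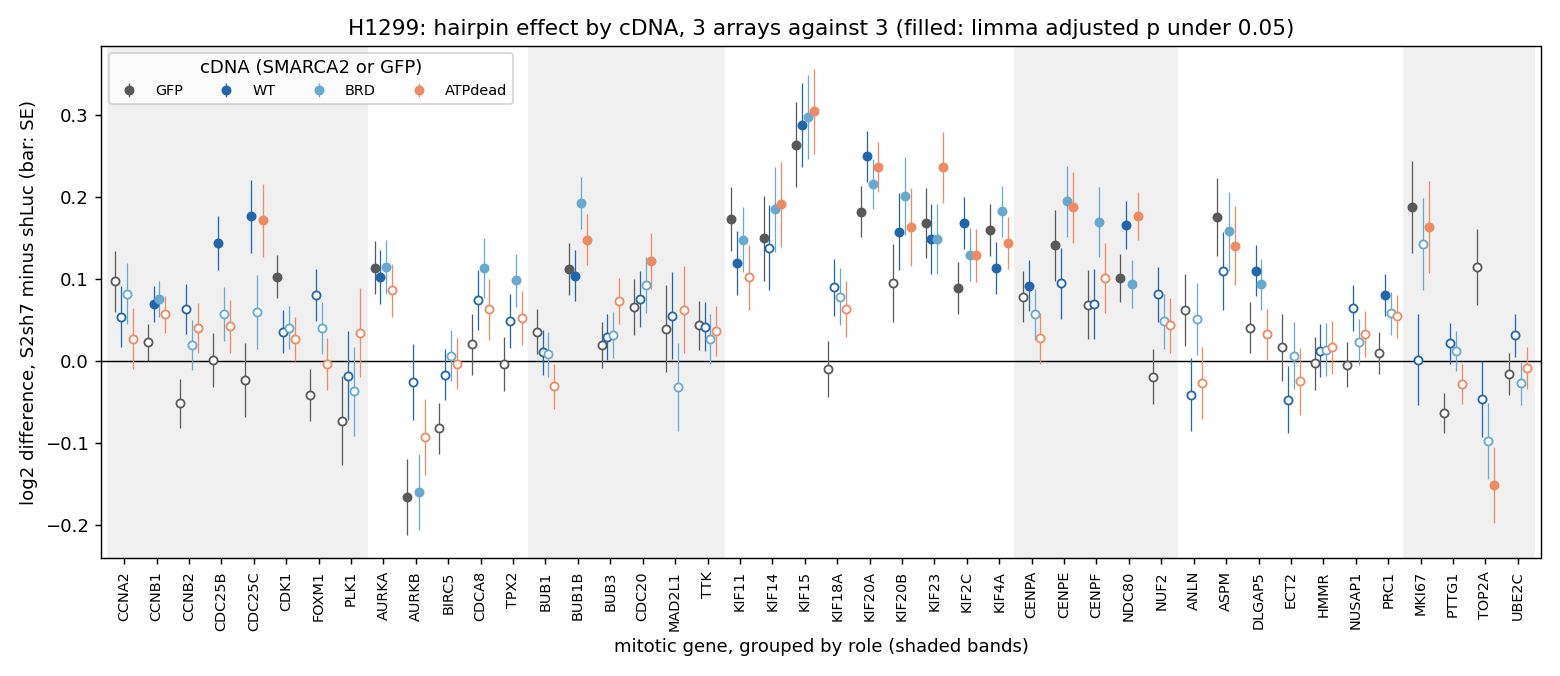
Log2 difference between S2sh7 and shLuc in H1299 (vertical axis, bars 1 SE from limma, 3 arrays against 3) for each mitotic gene (horizontal axis, grouped by role in shaded bands) and cDNA; filled symbols passed an adjusted p under 0.05. Filled symbols lie in every role band. Those of the kinesin band lie between 0.09 and 0.30, and all higher calls between 0.07 and 0.30. AURKB (GFP and BRD) and TOP2A (ATPdead) are the members called lower.

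No hairpin effect on a mitotic gene was called different with a SMARCA2 cDNA in H1299. The difference between the hairpin effect with WT, BRD or ATPdead and that with GFP was called by limma for 0 members each, where 2.28%, 0.558% and 0.0612% of all genes were called; at an unadjusted p under 0.05 there were 9, 3 and 3 members, and limma with an intensity trend and robust variances called 0, 1 and 1. For the unadjusted and the trend and robust counts, here and under shLuc, no counts over all genes are given as background. For KIF20A the differences between the hairpin effects were 0.07, 0.03 and 0.05. The standard errors of such differences reached 0.079, beside called rises with the hairpin of 0.07 to 0.30. Under shLuc the WT, BRD and ATPdead cDNAs against GFP called 0, 1 and 0 members, where 2.74%, 1.37% and 0.122% of all genes changed; 6, 3 and 6 members had an unadjusted p under 0.05, and the trend and robust setting called 2, 2 and 1. The single call was CDC25B with BRD, which read 9.45, 9.54 and 9.52 with GFP and 9.64, 9.70 and 9.65 with BRD (0.16, adjusted p = 0.021); it was lost with centred arrays (adjusted p = 0.073), with only those groups fitted (0.24) and on leaving out any array but shLuc GFP replicate 2.

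Between the lines, 14 members rose in H1299 with GFP; of these 11 fell in A549 without competent SMARCA4 and 12 rose with it. Over all genes 1999 rose in H1299 with GFP, of which 377 fell in A549 without and 465 rose with competent SMARCA4. Members not called in H1299 with GFP also mostly changed in these directions. Of them 17 fell, 2 rose and 10 were not called in A549 without competent SMARCA4. Over all genes not called in H1299 with GFP, 2252 fell, 2394 rose and 5690 were not called in that A549 comparison. With competent SMARCA4 25 of these members rose and 4 were not called. Over all genes not called in H1299 with GFP, 1016 rose, 849 fell and 8471 were not called with it. KIF20A changed by 0.18 in H1299 with GFP and by -0.66 between the A549 GFP arrays. The A549 cDNAs encode SMARCA4 and the H1299 cDNAs SMARCA2, and the difference between the lines was not tested.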

How the data were processed

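Trizol-extracted RNA was amplified with a 3' IVT kit and hybridised to HG-U133 Plus 2.0 arrays. The authors deposited RMA expression per probe set as intensity on a linear scale; RMA and limma are named in the submitters' processing notes, and their versions are not given in the sources used here. The design had assumed log2 values, so log2 was taken with no pseudocount. No read depth exists for arrays, and their number limits the precision. Of 54675 probe sets 41097 had 1 symbol, 1801 several and 11777 none; the brightest probe set per gene was kept, and genes above log2 5 in at least 3 of 32 arrays were tested.

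Array medians (26.4 to 27.3 for H1299, 40.1 to 41.2 for A549) differed, and the lines were fitted apart with limma 3.58.1 (R 4.3.3; lmFit, eBayes), 1 mean per group in H1299 (16 residual degrees of freedom) and per class in A549 (4), with Benjamini-Hochberg adjustment over 14695 genes. A call is an adjusted p under 0.05. H1299 replicates correlated at 0.9976 to 0.9988 and no arrays were identical. Code was tested on simulated data. Figures used matplotlib 3.10.9 (Python 3.11.15).

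The members, lists, classes and tests were chosen with earlier results of these data known. Genes given by array are KIF20A and, per comparison, the called members with the smallest adjusted p (up to 8 for H1299 with GFP and A549 without competent SMARCA4, up to 4 otherwise), followed in other comparisons where shown; ECT2 and the members given by role were named after their values were seen. Alternatives were other scalings, filters, probe set rules, variance models, fitted groups, a replicate block, additive A549 models and leaving out arrays.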

Additional observations from a re-analysis of the deposited data

Results flagged for a closer look

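The hairpin effect differed between A549 lines with and without competent SMARCA4 for these members, by the interaction of the limma fit; every S2sh7 array moved down from the shLuc mean without competent SMARCA4 and up with it for KIF20A, DLGAP5, KIF2C and TOP2A. The difference was 1.61 for KIF20A, 1.35 for DLGAP5, 1.23 for TOP2A, 1.10 for KIF2C and 0.91 for CDK1, with adjusted p-values of 0.00087, 0.00018, 0.00027, 0.00025 and 0.00038. For CDK1 the fall carried most of it, since its difference with competent SMARCA4 (0.14) did not pass. Groups of 3 arrays or 1 are too small for the check of single arrays standing apart.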

How the results depend on the processing

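Of 203 alternative values of the member counts, 177 stayed within 1.5 times the main count, 25 moved further and 1 reversed. An additive fit over all 8 A549 arrays assumes an equal hairpin effect for all cDNAs; it called 2 members, both higher, in place of 31 (29 lower) without and 37 with competent SMARCA4, gave 0.0357 for DLGAP5 (-0.64 without) and -0.16 for KIF20A (0.65 with), and the additive fit of competence and hairpin called 0 in place of 42 under S2sh7. Fitting only the groups compared, with fewer residual degrees of freedom, gave 8, 7 and 6 calls in H1299 with GFP, WT and BRD (15, 16 and 19) and 0 for BRD against GFP under shLuc (1). Centring each array gave 23 (GFP) and 0 (BRD against GFP under shLuc), and moved the split over all genes from 268 higher and 67 lower to 128 and 181 for the WT hairpin effect minus that with GFP, and from 136 and 267 to 204 and 152 for WT against GFP under shLuc; the cause was not tested. The trend and robust setting gave 1, 2 and 2 for ATPdead, BRD and WT against GFP under shLuc, and 1 and 1 for the ATPdead and BRD hairpin effects minus that with GFP. The mean of probe sets gave -0.0105 for ASPM in H1299 with GFP.

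Leaving out arrays gave 24 to 32 calls (A549 without), 22 to 28 (with), 35 to 41 (difference), 41 to 43 (competent against none under S2sh7), 9 to 16, 10 to 13, 10 to 19 and 11 to 15 (H1299 with GFP, WT, BRD and ATPdead), 0 to 1 (BRD against GFP under shLuc) and 0 to 1 (WT hairpin effect minus that with GFP; 1 higher without S2sh7 GFP replicate 2 and 1 lower without S2sh7 WT replicate 1). In A549 the lone array left in a class is assumed to vary like the others. Of the single-gene values under alternatives, 611 kept direction and call, 34 kept direction and lost the call and 3 reversed. Replicate numbers did not pair the H1299 arrays: deviations of same-numbered arrays correlated at -0.0051 on average (84 pairs) and 8 of 24 arrays matched their own number best. With the replicate number as a block, 14, 16, 19 and 15 members were called with GFP, WT, BRD and ATPdead, and no count moved by over 1.5 times. The 2 added A549 alternatives, the GFP and ATPdead arrays or the WT and BRD arrays alone, were chosen after seeing the data.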
